A study of Homo sapiens with 8 samples.

Results

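The regions described here are the HIF-1β peaks that lay within 500 kb on either side of MYC or CCND1 in 4 human cancer cell lines. Overlapping peaks of the 8 libraries were merged, which gave 8370 regions over the whole genome. Of these, 20 fell in the windows around the 2 genes, 12 around MYC and 8 around CCND1. They were built from 42 of the 18645 peaks, or 0.225%. On GRCh37 (hg19), the MYC window ran from 128247680 to 129255197 on chromosome 8 and contained the whole of the long non-coding RNA gene PVT1. The CCND1 window ran from 68955924 to 69969242 on chromosome 11 and contained MYEOV. ChIP-seq, in which DNA bound by a protein is recovered with an antibody and sequenced, had been performed with an antibody against HIF-1β in PC-3 prostate cancer cells, T47D oestrogen receptor positive breast cancer cells, A549 lung cancer cells and HCT-116 colorectal cancer cells. Every library came from cells held at 0.5% oxygen for 16 h, with 2 replicates per line, and libraries of normoxic cells or of control DNA were not analysed here. Nothing in the labels says whether the replicates were separate cultures, so tests between lines measure differences beyond the spread between these libraries, which may be technical. The lists held between 1042 and 3790 peaks each and no reads, so the sequencing depth behind a peak, or behind its absence, is unknown. They also hold no expression values, so the labelled cell types were not checked against marker genes.

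HIF is a heterodimer of an oxygen-regulated α subunit and the constant subunit HIF-1β, and it binds DNA at a short core sequence, RCGTG, where R is A or G. In hypoxia the α subunits escape degradation and the dimer binds both promoters and enhancers, some of them far from the genes they control. Only HIF-1β was recovered in these libraries, so whether an α subunit was bound at a given peak was not tested. MYC encodes a transcription factor that drives cell growth and proliferation and binds the sequence CACGTG as a dimer with MAX. PVT1 is the long non-coding RNA gene next to MYC and is often amplified together with it in cancer. CCND1 encodes cyclin D1, which activates CDK4 and CDK6 so that they phosphorylate RB1 and release the cell from G1 arrest. MYEOV is a neighbour of CCND1 that was found through its overexpression in myeloma. Both neighbourhoods contain susceptibility loci for renal cell carcinoma (RCC), and the study assayed them by ChIP-qPCR and by Capture-C, a method that maps DNA contacts of a chosen viewpoint. Of its assay sequences, the qPCR primers of both loci and the capture oligonucleotides of the CCND1 locus were used here.

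Sequences are shown for the CCND1 window, where few regions recurred, so that the recurrent regions can be read next to the stretches that the study designed its assays on. Below are the central 200 bases of the 4 regions of that window with peaks of 2 or more libraries, the ChIP-qPCR product of the RCC locus at 11q13.3, and the capture oligonucleotides that lay nearest to a peak. All are on the plus strand of chromosome 11 in GRCh37, and capitals mark RCGTG, read as ACGTG or as GCGTG and searched on both strands.
Region 198 kb upstream of CCND1, chr11:69257535-69257734: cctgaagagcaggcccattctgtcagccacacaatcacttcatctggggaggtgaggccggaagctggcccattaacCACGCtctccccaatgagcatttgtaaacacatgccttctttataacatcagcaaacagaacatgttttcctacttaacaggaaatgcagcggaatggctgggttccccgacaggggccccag
Region 144 kb upstream of CCND1, chr11:69312001-69312200: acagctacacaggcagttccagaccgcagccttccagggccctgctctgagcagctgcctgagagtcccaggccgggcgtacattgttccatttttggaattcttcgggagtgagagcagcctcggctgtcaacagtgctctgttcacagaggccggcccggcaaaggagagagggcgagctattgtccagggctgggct
Region 4 kb upstream of CCND1, chr11:69452135-69452334: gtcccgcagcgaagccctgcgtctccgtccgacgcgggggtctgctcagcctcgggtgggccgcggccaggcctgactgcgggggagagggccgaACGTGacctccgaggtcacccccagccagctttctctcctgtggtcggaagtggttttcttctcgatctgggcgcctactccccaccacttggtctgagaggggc
Region 339 kb downstream of CCND1, chr11:69795042-69795241: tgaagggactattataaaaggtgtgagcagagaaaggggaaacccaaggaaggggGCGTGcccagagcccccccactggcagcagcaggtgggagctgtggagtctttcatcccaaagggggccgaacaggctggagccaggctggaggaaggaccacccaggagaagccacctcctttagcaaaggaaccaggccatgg
ChIP-qPCR product at 11q13.3, chr11:69234573-69234642: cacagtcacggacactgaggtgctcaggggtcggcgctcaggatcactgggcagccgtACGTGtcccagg
Capture oligonucleotide 1, chr11:69063142-69063261: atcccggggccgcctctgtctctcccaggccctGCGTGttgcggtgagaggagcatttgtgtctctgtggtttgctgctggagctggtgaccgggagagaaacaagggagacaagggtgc
Capture oligonucleotide 7, chr11:69252083-69252202: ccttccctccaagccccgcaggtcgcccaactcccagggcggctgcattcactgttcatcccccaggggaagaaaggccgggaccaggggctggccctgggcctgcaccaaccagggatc
The centre of the region at 144 kb held no motif, and each of the other 3 centres held 1. The qPCR product held 1 motif, an ACGTG near its end, and of these oligonucleotides number 1 held 1 and number 7 held none.

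In the MYC window, 11 of the 12 regions lay downstream of the gene and within PVT1, and T47D cells had more of them in both replicates than any other line. MYC itself spans 128747680 to 128755197 on the plus strand, and no region overlapped it. PVT1, which starts downstream of MYC and runs from 128806772 to 129199347, takes up 39% of the window. Peaks of both replicates of a line lay at 9 of the 12 regions, against 45.9% of the 8362 merged regions on the main chromosomes. All 9 were in PVT1, and such a region is called a site of that line from here on. T47D cells had 6 sites in the window, A549 cells 3 and PC-3 cells 2, while HCT-116 cells had none. CASC11, CASC8, CCAT2 and PCAT1, which are further long non-coding RNA genes of the window, and the protein-coding gene POU5F1B overlapped no region. Upstream of MYC, the first 432506 bp of the window held no peak in any library. Outside the window the nearest regions lay 662765 bp upstream and 311484 bp downstream of its edges.

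**Figure D1:**
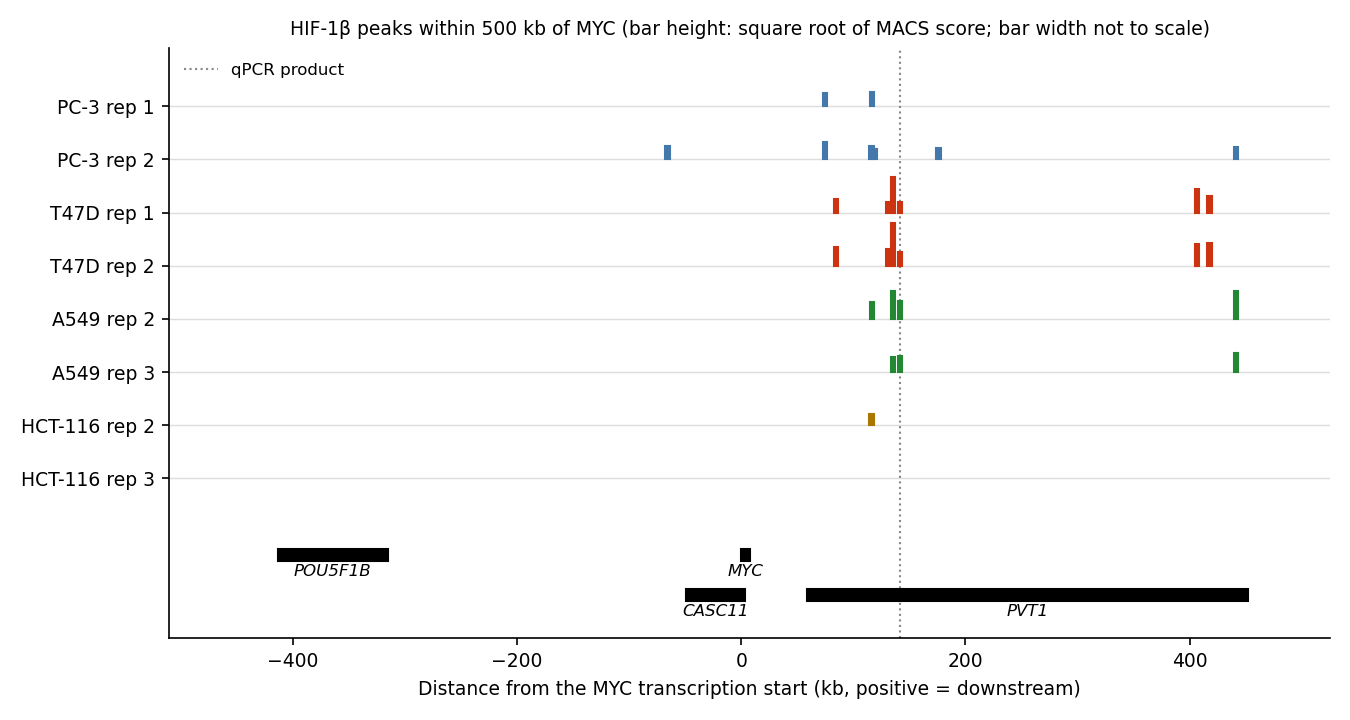
Position of every HIF-1β peak in the MYC window, by library, against the distance from the MYC transcription start in kb. Bar height is the square root of the MACS score, bars are wider than the peaks, black boxes are genes and the dotted line is the ChIP-qPCR product of 8q24.21. Peaks of all lines but HCT-116 lie in PVT1 in both replicates, and 1 region alone lies upstream of MYC.

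The highest-scoring region of either window lay 135 kb downstream of MYC, from 128882141 to 128884117 in an intron of PVT1. MACS gives each peak a score, which was read here against the other peaks of the same list. In T47D cells the peak scored 607.63 in replicate 1, where it ranked 95 of 3061 peaks, and 879.48 in replicate 2, where it ranked 83 of 2910. In A549 cells it scored 380.52 in replicate 2 and 107.78 in replicate 3, and 10% and 43.5% of the peaks of those lists scored higher. The region therefore stood near the top of both T47D lists, but in A549 cells near the top of 1 list and in the middle of the other. Neither PC-3 nor HCT-116 cells had a peak there. The centres of the 4 peaks lay within 274 bp of each other, and those of the T47D replicates within 89 bp. The region held 3 copies of RCGTG, 1 of them in its central 200 bp.

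Around this region, 7 regions lay between 75 and 142 kb downstream of MYC, in a stretch of 68330 bp that is 6.78% of the window and was picked out after the positions were seen. The first of them, at 75 kb (128821409 to 128823580, a PVT1 intron), had peaks in PC-3 cells only, with scores of 87.98 and 149.96. At 84 kb (128831424 to 128832879, over an exon of PVT1) both T47D replicates had a peak, with scores of 87.7 and 177.3. The region at 131 kb (128877596 to 128880266, a PVT1 intron) was again a T47D site, but its score of 50.51 in replicate 1 was close to the lowest in that list, where 98.4% of the peaks scored higher. In replicate 2 it scored 131.04, and 30.9% scored higher. This site is thus weak in 1 T47D library and of middle rank in the other.

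The region at 117 kb (128863228 to 128865271, over an exon of PVT1) was found in the most lines of any region in the MYC window. PC-3 cells had a peak there in both replicates, with scores of 92.57 and 81.54. A549 replicate 2 had a peak with a score of 140.8 and replicate 3 had none, and HCT-116 replicate 2 had a peak with a score of 56.44 and replicate 3 had none. The HCT-116 peak was the only peak of that line in the window, and 88.9% of the peaks of its list scored higher. It held 4 copies of RCGTG and none in its central 200 bp.

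At 142 kb, the region from 128888637 to 128889738 in a PVT1 intron was a site of both T47D and A549 cells and contained the ChIP-qPCR product of the RCC locus 8q24.21. Its T47D peaks scored 52.7 and 85.13, and 92.9% and 52.5% of the peaks of their lists scored higher. The A549 peaks scored 154.35 and 123.78, with 30.4% and 37.5% scoring higher. Relative to its own list, the peak therefore stood higher in both A549 libraries than in either T47D library. The qPCR product, matched to GRCh37 by its primers at 128889144 to 128889213, is 70 bp long, lies 141464 bp from the MYC start and holds 1 copy of RCGTG. Its centre was 59 and 65 bp from the centres of the T47D peaks and 56 and 35 bp from those of the A549 peaks, in peaks between 898 and 1029 bp wide. In PC-3 cells the nearest peak lay 23873 bp away in replicate 1 and 21979 bp in replicate 2. For HCT-116 cells the distances were 24434 bp in replicate 2 and 1832855 bp in replicate 3. The region held 4 copies of RCGTG, 2 of them in its central 200 bp, the most of the MYC regions. The index SNP of the locus and its haplotype block were not used here, so the locus is represented by this product only.

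Further downstream, 3 sites lay near the far end of PVT1, at 407, 418 and 441 kb from MYC. Those at 407 kb (129153560 to 129155126, a PVT1 intron) and 418 kb (129164778 to 129166171, over an exon of PVT1) were T47D sites. The former scored 258.76 in replicate 1 and 223.73 in replicate 2, and the latter 135.05 and 261.88. Both belonged to the upper part of the T47D lists, with between 10.6% and 25.8% of peaks scoring higher. The site at 441 kb (129188306 to 129190021, a PVT1 intron) was one of A549 cells, with scores of 366.8 and 167.66, and PC-3 replicate 2 also had a peak there, with a score of 77.95. It was the only region of the MYC window without RCGTG. In A549 replicate 2 it stood next to the region at 135 kb in rank, and in replicate 3 it was the highest of the window.

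Only PC-3 replicate 2 had a peak at the remaining 3 regions of the MYC window. The single upstream region, which is also the one nearest to the MYC start, was the widest at 3570 bp (128680186 to 128683755) and lay 63925 bp from it, over the start of a long non-coding RNA, ENSG00000286010. Its peak scored 89.13. The others lay at 119 kb (score 53.25) and 176 kb (score 59.53), over exons of PVT1, and 93.3% and 80.9% of the peaks of the list scored higher. PC-3 replicate 1 had 1042 peaks and replicate 2 had 2891, so a region missing from replicate 1 cannot be told apart from one lost in the shorter list.

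Within lines, the order of the T47D sites by score was alike in both replicates. The region at 135 kb came first in both, the sites at 407 and 418 kb took the next places, the site at 84 kb followed them, and those at 131 and 142 kb came last. T47D and A549 cells shared 2 sites, at 135 and 142 kb, which are 2 of the 6 T47D sites and 2 of the 3 A549 sites. Over the genome, 17.6% of T47D sites overlapped an A549 site and 34.8% of A549 sites overlapped a T47D site. Neither of the 2 PC-3 sites was a site of another line. Over the genome, 44.2% of PC-3 sites overlapped a T47D site, 41.8% an A549 site and 56.5% an HCT-116 site, and HCT-116 cells had no site in this window. The genome shares include sites within 2 kb of a protein-coding start, of which this window had none. With 2, 3 and 6 sites per line these shares are given as a description only.

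In the CCND1 window fewer regions recurred, they were spread over both sides of the gene, and the 2 sites belonged to different lines. CCND1 spans 69455924 to 69469242 on the plus strand. Of the 8 regions, 6 lay upstream of its start and 2 downstream, between 4 and 391 kb away. Peaks of both replicates of a line lay at 2 of the 8 regions, 1 in T47D and 1 in HCT-116 cells, against 45.9% of merged regions. In 4 regions a peak of 1 library only was found, a count for which no share over the genome is given here. MYEOV, which runs from 69061605 to 69182494 in the annotation used and takes up 11.9% of the window, overlapped 3 regions, none of them with peaks of both replicates. FGF19, FGF4 and FGF3, which encode fibroblast growth factors, and ANO1, which encodes a chloride channel, overlapped none. The nearest regions outside the window lay 64203 bp upstream and 59806 bp downstream of its edges.

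**Figure D2:**
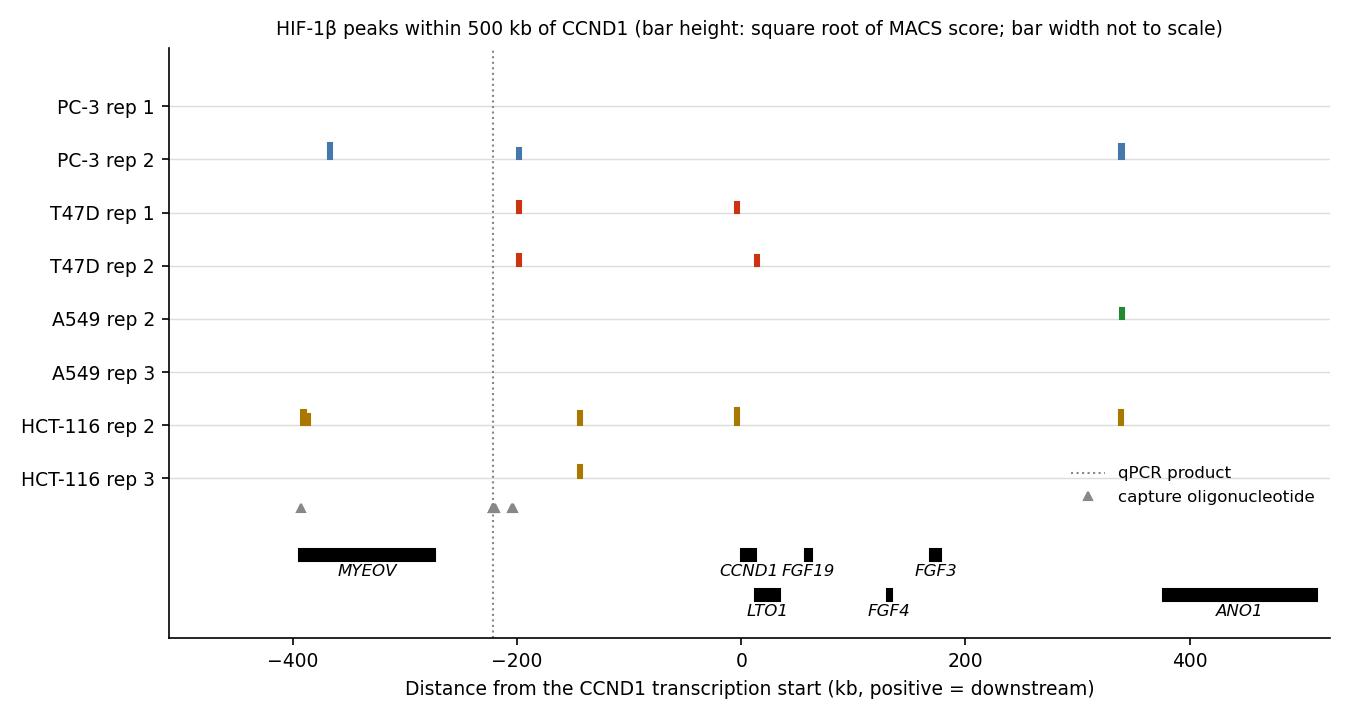
Position of every HIF-1β peak in the CCND1 window, by library, against the distance from the CCND1 transcription start in kb, drawn as for MYC. Triangles are the 7 capture oligonucleotides, several of which overlap at this scale, and the dotted line is the ChIP-qPCR product of 11q13.3. Peaks of both replicates of a line stand above each other at 198 kb upstream in T47D cells and at 144 kb upstream in HCT-116 cells only.

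The T47D site, 198 kb upstream of CCND1 (69256297 to 69258972, whose centre is printed above), lay in an intron of the long non-coding RNA gene LINC02952. Its peaks scored 60.5 in replicate 1 and 71.81 in replicate 2, and PC-3 replicate 2 had a peak there with a score of 59.87. Between 64.4% and 80.5% of the peaks of these lists scored higher, so that all 3 peaks stood in the lower part of their lists. The region held 7 copies of RCGTG, 1 of them in its centre. The HCT-116 site, 144 kb upstream (69311405 to 69312796), was intergenic, with scores of 104.71 in replicate 2 and 87.41 in replicate 3. Its standing was close to the middle of both lists, with 45.3% and 53.2% of peaks scoring higher. No copy of RCGTG occurred in its 1392 bp.

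Close to CCND1 itself, T47D replicate 1 (score 52.18) and HCT-116 replicate 2 (score 143.39) had overlapping peaks that ended 2268 bp before the transcription start (69450814 to 69453656), in no annotated gene. This region, the nearest to the transcription start of either gene, held 12 copies of RCGTG, the most of the 20 regions, but no line had it in both replicates. A peak of T47D replicate 2 (score 55.38) at 69468573 to 69471107 overlapped the 3′ end of CCND1 and a part of LTO1, a gene for a ribosome biogenesis factor on the opposite strand, over exons of both. T47D cells therefore had a peak near CCND1 in each replicate, but at different places and with 94% and 88% of the peaks of the lists scoring higher.

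The region 339 kb downstream (69793904 to 69796379) was the only one of the 20 with peaks of 3 lines and of both replicates of none. Its scores were 109.09 in PC-3 replicate 2, 52.53 in A549 replicate 2 and 114.84 in HCT-116 replicate 2. It was intergenic, 35634 bp from the start of ANO1, and held 10 copies of RCGTG. The outermost peak centres lay 866 bp apart, the widest spread of any region, and requiring peaks to share 50% of both their lengths made 2 regions of it. Near MYEOV, HCT-116 replicate 2 had peaks 391 kb (score 113.32) and 386 kb (score 65.37) upstream of CCND1, and PC-3 replicate 2 had one at 367 kb (score 133.0). The first of these lay 2496 bp from the MYEOV start, over an exon, and held 8 copies of RCGTG.

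At the RCC locus 11q13.3, no library had a peak at the ChIP-qPCR product, which lies 221282 bp upstream of the CCND1 start and 172968 bp from the start of MYEOV. The nearest peaks were those of the T47D site, 21655 bp away in replicate 1 and 22041 bp in replicate 2, and of PC-3 replicate 2, 22231 bp away. In HCT-116 cells the nearest peak lay 76763 bp away in replicate 2 and 76816 bp in replicate 3. PC-3 replicate 1 had none within 1111952 bp, and the distances in A549 cells were 343335 bp in replicate 2 and 1086034 bp in replicate 3. All 7 capture oligonucleotides of the locus matched GRCh37 at a single place, and none lay in a peak. Oligonucleotide 1 lay 840 bp from the HCT-116 peak near the MYEOV start, and oligonucleotide 7 lay 4095 bp from the T47D site. The index SNP and the haplotype block of this locus were likewise not used here. In these lines the qPCR products of the RCC loci thus differed. That of the MYC locus lay inside a site of T47D and A549 cells, and that of the CCND1 locus in no peak of the 8 libraries. The paper lists both loci as overlapping a HIF-binding site in RCC cell lines. It also reports HIF-1β binding by ChIP-qPCR at these sites in primary tumour cells of a patient with kidney cancer. Such cells were not analysed here.

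No region of either window came within 2 kb of a protein-coding transcription start, against 38.3% of merged regions over the genome. The closest, 2268 bp from CCND1, lay just outside that limit. All regions were thus distal by this measure. The MYC window overlapped only 2 protein-coding genes and the CCND1 window 7, and the part of this in the absence of promoter regions was not tested. In the MYC window, where POU5F1B is the only other protein-coding gene, the nearest protein-coding start to every region was that of MYC. Peaks in 2 or more lines were found at 4 of the 12 MYC regions and 3 of the 8 CCND1 regions, against 32.8% of merged regions. Shares over the merged regions, here and in the other paragraphs, include regions within 2 kb of such a start. By line, both replicates had a peak at 2 of 6 MYC regions in PC-3 cells (32.8% of all PC-3 regions over the genome), 3 of 4 in A549 cells (52.2%), 6 of 6 in T47D cells (53.1%) and 0 of 1 in HCT-116 cells (44.6%). In the CCND1 window the numbers were 0 of 3 in PC-3 cells, 0 of 1 in A549 cells, 1 of 3 in T47D cells and 1 of 5 in HCT-116 cells. The T47D regions were therefore found in both replicates throughout the MYC window and at 1 region near CCND1.

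RCGTG occurred in 11 of the 12 MYC regions and 6 of the 8 CCND1 regions, against 92.9% of merged regions over the genome. In the central 200 bp it occurred in 5 and 4 regions respectively, against 59.5%. CACGTG, a motif that MYC binds with MAX, contains RCGTG on both strands and so counts as 2 copies of it. It occurred in 2 of the 12 MYC regions and 6 of the 8 CCND1 regions, against 27.5%. Which protein binds these copies was not tested. The density of RCGTG had a median of 1.325 per kb in the MYC regions, 2.825 per kb in the CCND1 regions and 2.768 per kb over all merged regions. GC content moved with it. Its median was 48.55% in the MYC regions (45.6 to 54.6%) and 58.3% in the CCND1 regions (55.3 to 63.3%), ranges that do not overlap, and 54.26% over all regions. Since RCGTG contains a CG pair, the part of base composition in these motif counts was not tested. Median widths were 1743 bp around MYC and 2505.5 bp around CCND1, against 1282 bp over all merged regions. A wider region has more room for a motif, and the part of width in the counts of regions with a motif was not tested either.

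Read against their own lists and pooled over the libraries, peaks of the MYC window stood higher than those of the CCND1 window, but the order differed between libraries. A median of 35.25% of the peaks of the same list scored higher than a MYC peak (2.82 to 98.4%, n = 28 peaks), and 58.8% scored higher than a CCND1 peak (29.7 to 94.2%, n = 14). The difference between the windows was not tested, since the peaks of a library are not replicates. In T47D cells the MYC peaks had medians of 36.4% and 17.8% in replicates 1 and 2 and the CCND1 peaks 85.5% and 76.2%. In A549 replicate 2 the MYC peaks had a median of 20.4%, against 94.2% for the single CCND1 peak. The order was the opposite in PC-3 replicate 2, with medians of 56.3% for the 6 MYC peaks and 37.9% for the 3 CCND1 peaks. It was also the opposite in HCT-116 replicate 2, with 88.9% for the single MYC peak and a median of 41.4% for the 5 CCND1 peaks. The remaining 3 libraries had no peak in at least 1 of the windows.

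**Figure D3:**
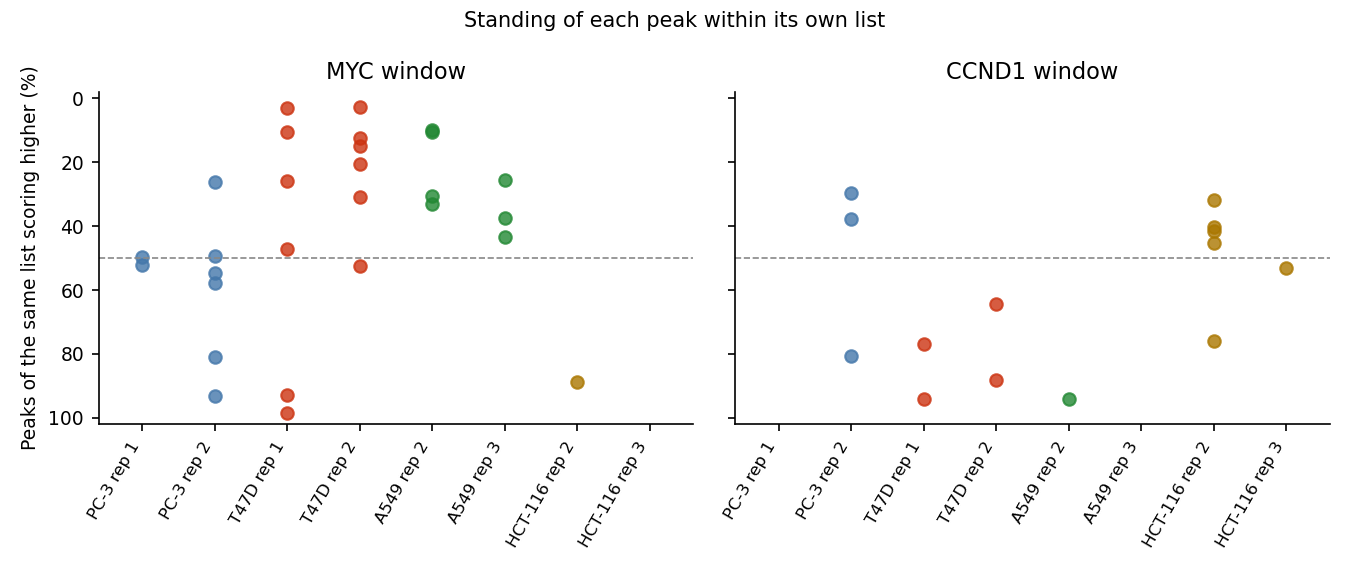
Standing of each peak of the MYC (left) and CCND1 (right) windows within its own list, as the percent of peaks of that list that score higher (0 at the top), with 1 point per peak and the dashed line at 50%. The points nearest the top of the MYC panel are T47D and A549 peaks, while T47D peaks of the CCND1 window all lie below the line.

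The share of a library's peaks that fell in the MYC window was alike in 6 libraries and low in the HCT-116 libraries. It was 0.192% and 0.208% in PC-3 replicates 1 and 2 (95% exact binomial intervals 0.0233 to 0.692% and 0.0762 to 0.451%) and 0.196% and 0.206% in T47D replicates 1 and 2 (0.072 to 0.426% and 0.0757 to 0.448%). In A549 replicates 2 and 3 it was 0.226% and 0.236% (0.0617 to 0.578% and 0.0487 to 0.689%). HCT-116 replicate 2 had 1 of 3790 peaks there, or 0.0264% (0.000668 to 0.147%), and replicate 3 had 0 of 1913 (0 to 0.193%). These intervals cover counting error only. Per Mb, the 6 libraries of PC-3, T47D and A549 cells had between 5.9 and 7.26 times as many peaks in the window as over the genome, and HCT-116 replicate 2 had 0.811 times as many. The share differed less between replicates of a line, by 0.0155 percentage points on average, than between lines, by 0.11 (exact permutation test over the 105 ways to divide 8 libraries into pairs, one-sided, p = 0.029, adjusted p = 0.043 over 3 tests by the Benjamini-Hochberg method). This call rests on single libraries, since in the same exact permutation test it was lost without T47D replicate 2 (adjusted p = 0.057) and without A549 replicate 3 (adjusted p = 0.071).

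**Figure D4:**
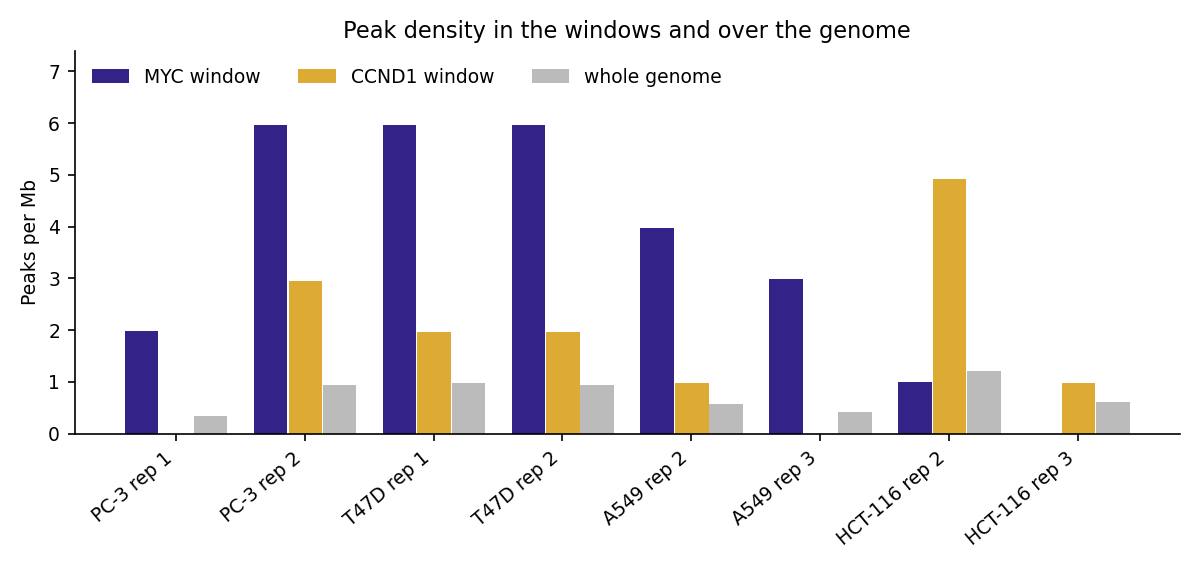
Peaks per Mb in the MYC window, in the CCND1 window and over the whole genome, for each library. The MYC window bars exceed the genome bars in all libraries of PC-3, T47D and A549 cells, and the largest CCND1 bar is that of HCT-116 replicate 2, which has 4.93 peaks per Mb.

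The share of peaks in the CCND1 window did not follow the lines in this way. It was 0.132% (0.0428 to 0.308%) in HCT-116 replicate 2 but 0.0523% (0.00132 to 0.291%) in replicate 3. It was 0.104% (0.0214 to 0.303%) in PC-3 replicate 2 but 0 of 1042 (0 to 0.353%) in replicate 1. T47D replicates had 0.0653% and 0.0687% (0.00791 to 0.236% and 0.00832 to 0.248%), and A549 replicates had 0.0566% (0.00143 to 0.315%) and 0 of 1270 (0 to 0.29%). Replicates of a line differed by 0.0608 percentage points and lines by 0.0524 (exact permutation test, one-sided, p = 0.77, adjusted p = 0.77). This result depended on the width of the window. Within 250 kb of the gene, replicates differed by 0.00962 percentage points, less than lines did (exact permutation test, adjusted p = 0.029).

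Which regions had peaks also followed the lines on average, though not in every line. The Jaccard index, the regions in both of 2 libraries as a share of the regions in either, averaged 0.442 for replicates of a line and 0.0858 for libraries of different lines, over the regions of both windows (one-sided exact permutation test, p = 0.0095, which is the lowest p the 105 divisions allow, adjusted p = 0.029). It was 0.778 for T47D and 0.6 for A549 replicates but 0.222 for PC-3 and 0.167 for HCT-116 replicates. The lines with the lower values were those whose lists differed most in length, and the part of list length in them was not tested. Without A549 replicate 3 the call was lost (mean 0.389 within lines, exact permutation test, adjusted p = 0.071). Between lines, the highest index was 0.273, for PC-3 replicate 2 and A549 replicate 2, above the 0.222 of the PC-3 replicates. HCT-116 replicate 2 and A549 replicate 2 had an index of 0.222, above the 0.167 of the HCT-116 replicates. Many pairs of libraries from different lines shared no region. Every such pair with HCT-116 replicate 3, which had 1 peak in the windows, was among them. No index over the whole genome is given here, so whether the result is particular to these windows was not tested.

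Counted over all 20163 protein-coding genes, MYC was among those with the more numerous sites in T47D cells, and CCND1 had at most 1 site in any line. A gene had at least 1 site within 500 kb in 42.7% of cases for PC-3 cells and 39.4% for A549 cells, and in 65.0% for T47D cells and 61.0% for HCT-116 cells, so that a site at this range alone says little about a gene. With all sites counted, the 6 of MYC in T47D cells were reached or exceeded by 823 genes (4.08%), the 3 in A549 cells by 1366 genes (6.77%) and the 2 in PC-3 cells by 3375 genes (16.7%). When only sites more than 2 kb from every protein-coding start were counted, as all sites of both windows were, the number for MYC in T47D cells was reached or exceeded by 110 genes (0.546%). That in A549 cells was reached by 592 genes (2.94%) and that in PC-3 cells by 1699 genes (8.43%), so that the choice of sites changed these shares, and the median gene had 0 distal sites in each line. The 1 site of CCND1 was reached by 65% of genes in T47D cells and 61% in HCT-116 cells over all sites, and by 38% and 36.1% over distal sites, and CCND1 had 0 in PC-3 and A549 cells. Neighbouring genes share sites, so these genes are not independent, and the shares are a description.

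**Figure D5:**
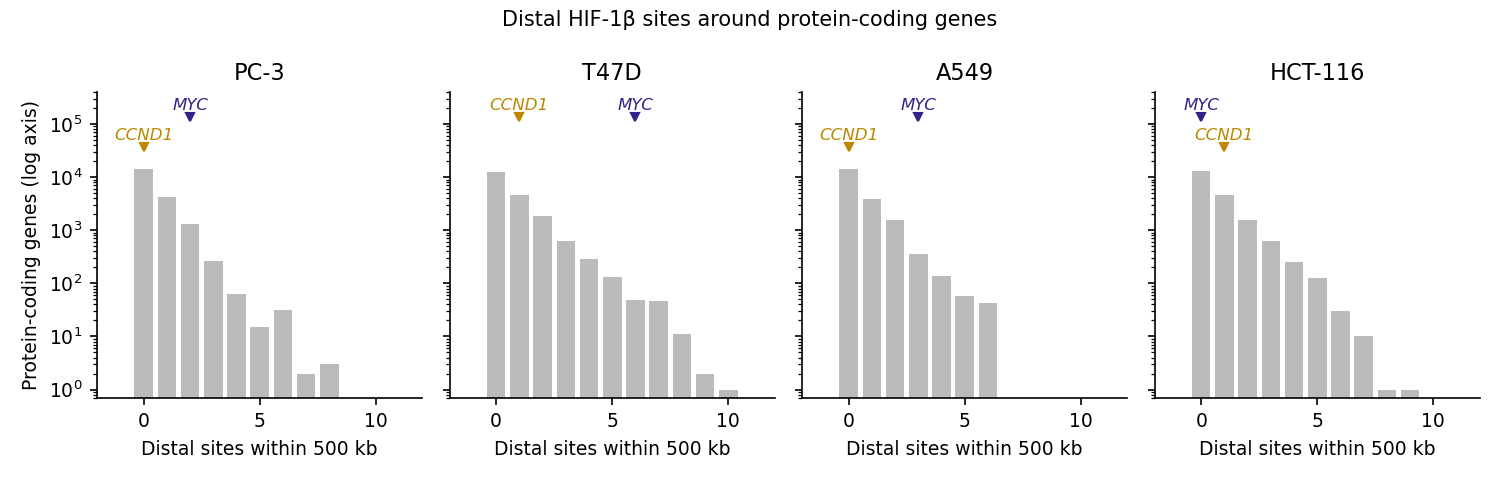
Number of protein-coding genes (log axis) by the number of distal HIF-1β sites within 500 kb, in each line, with the counts of MYC and CCND1 marked by triangles. MYC stands in the sparse right part of the T47D panel with 6 sites, while CCND1 has 0 or 1 in every panel.

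The other genes of the pathway were followed in a list of 16, made up of the MYC family with MAX, the D-type cyclins, CDK4 and CDK6, their inhibitors and RB1. Distances for this list run from a site to the gene body, not to the transcription start. A site within 25 kb was found at 3 of the 16 in PC-3 cells (18.8%, against 7.07% of all genes) and at 2 in A549 cells (12.5%, against 6.01%). It was found at 5 in T47D cells (31.2%, against 16.0%) and at 7 in HCT-116 cells (43.8%, against 14.2%). Within 500 kb the numbers were 7 in PC-3 cells (43.8%, against 42.7% of all genes) and 7 in A549 cells (43.8%, against 39.4%). They were 10 in T47D cells (62.5%, against 65.0%) and 11 in HCT-116 cells (68.8%, against 61.0%). At this range the list thus stood near the share of all genes, and in T47D cells below it. Within 25 kb it stood above that share in every line, on 2 to 7 genes per line, and the difference was not tested. Neither MYC nor CCND1 had a site within 25 kb in any line. Of their partners and relatives, MYCL, a paralogue of MYC, had a site 11133 bp away in PC-3 cells, 11220 bp in T47D cells and 11318 bp in HCT-116 cells. MAX, with which MYC pairs to bind DNA, overlapped a site in HCT-116 cells and had one 18303 bp away in PC-3 cells and 18152 bp in T47D cells. MYCN had none within 25 kb.

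Among the cyclins, CCND2 had no site within 500 kb in any line. CCND3 had sites in that range only in T47D cells, which had 4, the nearest 12862 bp away. CDK4, a kinase that cyclin D1 activates, overlapped a site in HCT-116 cells and lay 15506 bp from one in T47D cells. CDK6, the other such kinase, overlapped a site in A549 and HCT-116 cells. CDKN1B, which encodes the inhibitor p27, had a site 2292 bp away in PC-3 cells, 2470 bp in A549 cells and 2226 bp in HCT-116 cells, while the nearest in T47D cells lay 321679 bp away. CDKN2C overlapped a site in T47D and HCT-116 cells, and RB1 overlapped one in HCT-116 cells. CDKN2A and CDKN2B, the genes of the inhibitors p16 and p15, had none within 500 kb in any line. HCT-116 cells, with no site near MYC and 1 near CCND1, thus had the largest number of genes of the list with a site within 25 kb.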

How the data were processed

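Per the labels, the authors trimmed the reads with Trim Galore 0.3.3, aligned them to GRCh37 with BWA 0.7.5a-r405, handled them with SAMtools 0.1.19, Picard 1.106 and bedtools 2.17.0, and called peaks with MACS, whose version is not given in the sources used here. The antibody was a rabbit polyclonal against HIF-1β. The deposited list of each library gives, for every peak, an interval, a name and a score, which no header explains. The lowest score was between 50.0 and 50.09 in each list, and scores were compared within a list only. The study also required peaks of another caller, T-PIC, which cannot be seen in the lists.

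Peaks overlapping by at least 1 bp were merged over the 8 libraries, and a region with peaks of both replicates of a line was its site. Windows reached 500 kb beyond each gene body in GENCODE release 44 lifted to GRCh37. Distances run from the nearest edge of a region to the plus strand start, except distances in kb, which run from its centre. Genes, percentages of genes and motifs were counted on the 24 main chromosomes. The qPCR primers and capture oligonucleotides of the study were matched exactly to the genome. Tests were exact permutation tests over libraries with Benjamini-Hochberg adjustment over 3 tests and a threshold of 0.05. The merging and the tests were tested on simulated data, and the matching was not. All regions are reported, in full where both replicates of a line had a peak, where a locus was met, or nearest to each gene. The members, lists and tests were chosen with earlier results of these data known. Python 3.11.15, NumPy 2.4.6, SciPy 1.17.1, pysam 0.24.0, samtools 1.23.1 and Matplotlib 3.10.9 were used. Alternatives were an overlap of 50% of both peaks, only the higher-scoring 50% of every list, sites with a peak in either replicate, windows of 250 kb, each replicate left out and, added later, a replicate block.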

Additional observations from a re-analysis of the deposited data

How the results depend on the processing

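The lists give no reads, so whether a region missing from a library was unbound or below its limit cannot be told apart. Requiring an overlap of 50% of both peaks kept every count within 1.5 times and the similarity call. With the higher-scoring 50% of each list, PC-3 cells had 0 sites near MYC, the CCND1 window had 5 regions, and T47D and HCT-116 cells had 0 sites there. Counting a peak of either replicate gave 6 sites near MYC in PC-3 cells and 1 in HCT-116 cells, and near CCND1 1 in A549 cells, 3 in PC-3 cells, 3 in T47D cells and 5 in HCT-116 cells. With a replicate left out, every peak of the other counts as a site, and the MYC sites ranged from 2 to 6 in PC-3 cells (6 without replicate 1) and from 0 to 1 in HCT-116 cells (1 without replicate 3). The CCND1 sites then ranged from 0 to 3 in PC-3 cells (3 without replicate 1), from 1 to 5 in HCT-116 cells (5 without replicate 3) and from 0 to 1 in A549 cells (1 without replicate 3), and were 2 in T47D cells with 1 or the other replicate left out. The difference of CCND1 shares between replicates, larger than between lines over 500 kb, became smaller than between lines over 250 kb (0.00962 percentage points, exact permutation test, adjusted p = 0.029). It also did so with 1 or the other PC-3 replicate left out (0.0465, exact permutation test, adjusted p = 0.49 and 0.43) and without HCT-116 replicate 3 (0.0546, adjusted p = 0.35). Leaving out 1 library gave differences of MYC shares from 0.0119 to 0.0174, of CCND1 shares from 0.0465 to 0.08 and similarities from 0.33 to 0.533. By the same exact permutation test, the MYC share call was lost without T47D replicate 2 (0.0173, adjusted p = 0.057) or A549 replicate 3 (0.0174, adjusted p = 0.071), and the similarity call without A549 replicate 3 (0.389, adjusted p = 0.071). The cause was not tested. A fit with a replicate block, in which lines were permuted within each replicate number only and which was chosen after seeing the data, allowed 24 divisions and a smallest p of 0.042. It gave adjusted p = 0.12 for the MYC share (0.0155), 0.75 for the CCND1 share (0.0608) and 0.12 for the similarity (0.442, in 1 of 24 divisions; exact permutation test). Nothing in the labels says that a replicate number marks a shared culture or day.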
